A study of Mus musculus with 6 samples.

Results

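The genes described here encode the parts of the centromere and kinetochore and the spindle checkpoint that watches over them. They are 34 genes picked by symbol for what their proteins do, and all 34 were found among the 23183 genes listed for each library. RNA was sequenced from wild-type mouse lung group 2 innate lymphoid cells (ILC2), tissue lymphocytes that make type 2 cytokines. The DTA-1 group (3 libraries) received DTA-1, an agonist antibody against the receptor GITR, and the IgG2b group (3 libraries) received an isotype control antibody. Both groups were kept for 24 h with IL-2, IL-7 and IL-33 at 10 ng/ml each, so the comparison is between activated cells with and without added GITR engagement. No age, sex or strain was given, and nothing in the labels ties a library to its own animal or culture. The p-values therefore weigh the groups against the scatter among these 6 libraries, and that scatter may be technical only. Levels are given in FPKM, fragments scaled by transcript length and by library total, so they can be set side by side between genes. A log2 fold change is DTA-1 minus IgG2b in log2(FPKM + 1), given ± its SE, and group levels are means ± SD (n = 3 each). The adjusted p is limma's moderated test with Benjamini-Hochberg adjustment.

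The kinetochore is the protein assembly that ties a chromosome to spindle microtubules. It is built on nucleosomes that carry the histone H3 variant CENP-A, on which an inner layer of CENP proteins sits through the cell cycle. In mitosis an outer layer, with the Ndc80 complex at its core, grips the microtubules. Unattached kinetochores start the spindle checkpoint, which holds the cell before anaphase, and the chromosomal passenger complex with Aurora B kinase releases faulty attachments. Many of these genes are transcribed mainly in late S, G2 and M phase, and in lymphocytes they are known for rising when cytokines drive division.

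Many promoters of late cell-cycle genes hold a CHR element (cell cycle genes homology region, TTTGAA) near the start of transcription and CCAAT boxes (CCAAT) upstream of it. RefSeq promoter windows on GRCm38.p6, from 250 bases before to 50 bases after the start, were found for 28 of the 34 genes. Searched on both strands, TTTGAA was present for 11 of the 28 (39.3%), against 14.0% of the 8076 tested genes with a window and 20.2% of all 27025 genes with a window. A gene with several windows counted if any of them held the string. CCAAT was present for 19 of the 28 (67.9%), against 43.4% of tested genes and 41.1% of all genes with a window. The E2F-type strings TTCCCGC and TTTGGCG were present for 7 (25.0%) and 1 (3.57%) of the 28, against 10.3% and 3.28% of tested genes and 5.29% and 1.77% of all genes with a window. A match is a run of letters and not a shown binding site, and matches of different strings can overlap. The windows below run from 120 bases before to 30 bases after the start on the gene's own strand. They are shown because the first 4 hold both elements in genes that measured lower with DTA-1, while Bub3 holds both and differed little, Nuf2 holds neither and differed most, and Zwint, with CCAAT alone, measured higher. Capitals mark a match to any of the 4 strings on either strand.
Cenpa (chr5:30666766-30666915, plus strand, GRCm38.p6): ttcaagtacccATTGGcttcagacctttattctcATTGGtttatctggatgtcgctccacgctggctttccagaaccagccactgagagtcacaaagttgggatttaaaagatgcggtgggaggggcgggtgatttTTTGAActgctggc
Cdca8 (chr4:124936888-124937037, minus strand, GRCm38.p6): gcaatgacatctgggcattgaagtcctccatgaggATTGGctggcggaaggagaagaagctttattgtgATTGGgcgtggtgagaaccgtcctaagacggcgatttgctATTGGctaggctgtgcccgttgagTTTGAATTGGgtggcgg
Ttk (chr9:83834569-83834718, plus strand, GRCm38.p6): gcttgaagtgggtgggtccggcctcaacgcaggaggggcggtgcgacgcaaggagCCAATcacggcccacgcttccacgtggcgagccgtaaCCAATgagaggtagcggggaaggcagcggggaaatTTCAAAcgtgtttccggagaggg
Cenpf (chr1:189688057-189688206, minus strand, GRCm38.p6): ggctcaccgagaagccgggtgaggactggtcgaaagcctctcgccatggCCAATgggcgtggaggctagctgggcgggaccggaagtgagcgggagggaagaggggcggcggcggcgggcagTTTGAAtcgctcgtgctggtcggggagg
Bub3 (chr7:131560250-131560399, plus strand, GRCm38.p6): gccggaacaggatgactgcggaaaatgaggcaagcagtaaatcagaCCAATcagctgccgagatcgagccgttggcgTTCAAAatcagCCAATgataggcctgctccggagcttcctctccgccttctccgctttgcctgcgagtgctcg
Nuf2 (chr1:169531435-169531584, minus strand, GRCm38.p6): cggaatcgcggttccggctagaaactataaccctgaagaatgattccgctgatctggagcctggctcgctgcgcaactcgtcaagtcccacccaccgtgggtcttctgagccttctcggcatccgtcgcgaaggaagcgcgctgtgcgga
Zwint (chr10:72654726-72654875, plus strand, GRCm38.p6): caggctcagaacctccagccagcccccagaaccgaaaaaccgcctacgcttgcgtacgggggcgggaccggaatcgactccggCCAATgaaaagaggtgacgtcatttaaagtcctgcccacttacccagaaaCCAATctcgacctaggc
In Cenpa, Cdca8, Ttk and Cenpf the CHR letters lie just downstream of the annotated start with CCAAT letters upstream of them. In Bub3, whose window is the first of a pair in the RefSeq table, they lie upstream of the start. Among the 28 genes, the median log2 fold change was -0.77 with TTTGAA and -0.77 without it, and the rounded medians were the same for CCAAT. It was -0.51 for the 7 genes with TTCCCGC and -0.87 for those without. In a window of 150 bases before the start alone, TTTGAA was present for 3 of the 28 genes (10.7%, against 6.44% of tested genes and 10.5% of all genes with a window). CCAAT was present there for 17 (60.7%, against 32.6% and 27.7%) and TTCCCGC for 3 (10.7%, against 5.72% and 3.03%). In this window the median was -0.50 for the 3 genes with TTTGAA and -0.87 for those without. For TTCCCGC it was -0.87 with and -0.77 without, the reverse of the wider window. For CCAAT it was -0.865 with and -0.73 without, so each comparison depends on the window.

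The libraries were close in depth, at about 19400000 to 21100000 fragments as read from the steps between low values, with 14586 to 14939 genes detected above 0. All 10 ILC2 markers were expressed, with Il2ra the most abundant. Chosen after their values were seen, 2 of the 10 lay lower without overlap, against 10.5% of all tested genes. They were Klrg1, at 34.1 ± 20.5 FPKM with DTA-1 and 97.2 ± 17.6 FPKM with IgG2b, and Il1rl1, the IL-33 receptor gene, at 182 ± 9.05 FPKM with DTA-1 and 253 ± 53.2 FPKM with IgG2b. Of 47 markers of 9 other cell types, 6 reached 1 FPKM in any library and 7 were at 0 in all. Endothelial markers, nearly all from Pecam1, summed to between 19.9 and 38.7 FPKM with DTA-1 and between 31.6 and 43.9 FPKM with IgG2b. T-cell markers, mostly Lat, summed to between 31.8 and 34.4 FPKM with DTA-1 and between 31.6 and 41.9 FPKM with IgG2b. Of the 8 T-cell markers, 2 reached 1 FPKM in any library, Cd3g and Lat. Cd3g was 8.01 ± 1.04 FPKM with DTA-1 and 9.67 ± 0.425 FPKM with IgG2b, without overlap (limma adjusted p = 0.441), against 10.5% of all tested genes. Lat overlapped, at 23.7 ± 1.93 FPKM with DTA-1 and 24.6 ± 5.3 FPKM with IgG2b. Epithelial markers summed to between 1.14 and 2.07 FPKM with DTA-1 and between 2.85 and 4.44 FPKM with IgG2b, without overlap, nearly all from Epcam at 1.52 ± 0.388 FPKM with DTA-1 and 3.81 ± 0.84 FPKM with IgG2b. The part of these markers in the results was not tested. Before the results, 2 features of the libraries need stating. IgG2b replicate 1 stands above the other IgG2b libraries in most of the 34 genes. Spc24 and Ska2 list the same deposited value, to the last digit, in DTA-1 replicate 2 and again in DTA-1 replicate 3, so their values there are doubtful. Whether the match is a coincidence was not tested, and both genes are kept in the counts, which are also given without them.

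Transcripts of kinetochore and checkpoint genes were lower with DTA-1 in 32 of the 34 genes, with a median log2 fold change of -0.79 against 0.014 over all 10501 genes tested. Summed over the 34 genes, the level was 468, 404 and 438 FPKM in DTA-1 replicates 1, 2 and 3, against 951, 634 and 570 FPKM in IgG2b replicates 1, 2 and 3. The groups therefore did not overlap, and IgG2b replicate 1 stood well above the other IgG2b libraries. All 34 genes had passed the filter of at least 1 FPKM in at least 3 libraries. In bulk RNA, fewer cells in mitosis and less of these transcripts per cell cannot be told apart.

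None of the 34 genes passed limma's test at an adjusted p of 0.05 over all 10501 genes, a threshold that 0.0381% of all tested genes passed (0.00952% lower and 0.0286% higher). At an unadjusted p under 0.05, limma called 30 of the 34 lower and 0 higher, against 7.73% of all tested genes called lower and 6.22% called higher. The 3 DTA-1 values lay below every IgG2b value for 27 of the 34 genes, against 10.5% of all tested genes, and above every IgG2b value for 1 gene, against 11.2%. At an adjusted p of 0.1, 3 genes were called lower, Nuf2, Cenpk and Ndc80, against 0.429% of all tested genes. Without Spc24 and Ska2, 28 of 32 genes had an unadjusted p under 0.05 and were lower, 25 of 32 were lower without overlap, and the median was -0.77. Without IgG2b replicate 1 the median over the 34 genes was -0.51, and 25 of 34 had an unadjusted p under 0.05 and were lower, against 7.1% of all genes tested there. With library quality weights, limma called 15 of the 34 lower at an adjusted p of 0.05, against 2.99% of all tested genes. These weights count DTA-1 replicate 1 and IgG2b replicates 1 and 2 for less. They count DTA-1 replicate 2 the most, at 5.95, against 1.77 or less for the other libraries. In that library 19 of the 34 genes had their lowest value. The median over the 34 genes was -0.68 with these weights, and the part of that library in these calls was not tested.

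**Figure D1:**
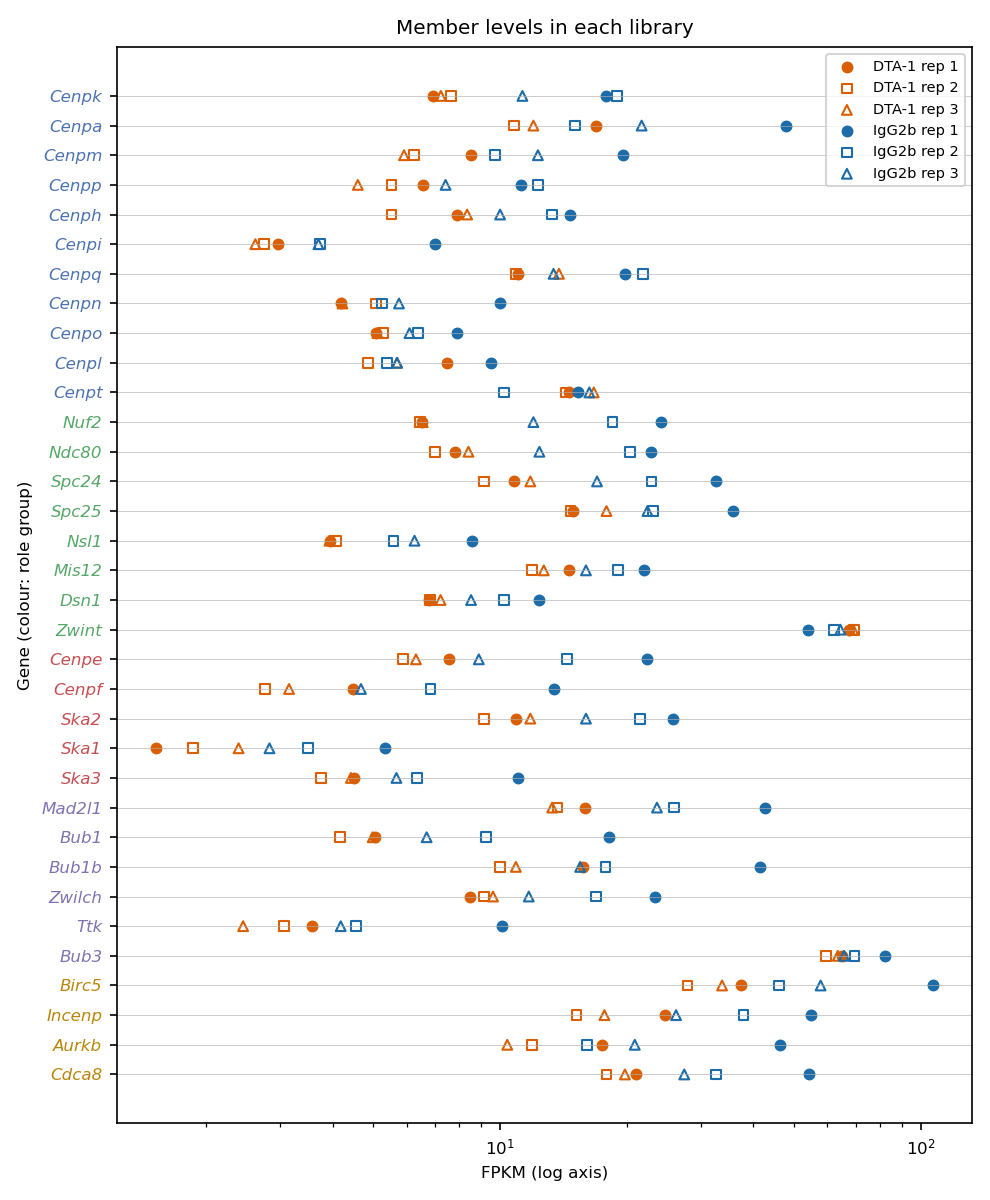
Level of each of the 34 genes in FPKM (log axis) in the 6 libraries, with DTA-1 in orange and IgG2b in blue and the shape giving the replicate. For 27 genes the orange points lie left of every blue point, and the filled blue circle, IgG2b replicate 1, is the highest value of 29 genes. Spc24 and Ska2 carry the same values in DTA-1 replicates 2 and 3.

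Inner-layer genes had a median log2 fold change of -0.58 over 11 genes, with single genes between -1.02 and 0.14. At an unadjusted p under 0.05, 9 of the 11 were lower, against 7.73% of all tested genes. That count was 4 without DTA-1 replicate 2 (5.39% of all genes tested there), 5 without DTA-1 replicate 3 (6.21%), and 6 without IgG2b replicate 1 (7.1%). Cenpk encodes a subunit of the CENP-H/I/K/M module that joins the inner layer to the outer one. It measured 6.94, 7.64 and 7.23 FPKM in DTA-1 replicates 1, 2 and 3, against 17.9, 19.0 and 11.3 FPKM in IgG2b replicates 1, 2 and 3. The DTA-1 values sat close together and below each IgG2b value, with its log2 fold change at -1.02 ± 0.19 (limma adjusted p = 0.0921, 0.0242 to 0.293 over the alternatives). Its module partner Cenph measured 7.92, 5.52 and 8.35 FPKM with DTA-1, against 14.7, 13.3 and 10.0 FPKM with IgG2b. Cenpp, of the CENP-O/P/Q/U group, measured 6.54, 5.52 and 4.59 FPKM with DTA-1, against 11.2, 12.3 and 7.42 FPKM with IgG2b. Both were lower without overlap, with log2 fold changes of -0.73 ± 0.19 and -0.77 ± 0.20 (limma adjusted p = 0.157 for each), and neither passed. Exons of Cenpp share 12.29% of their bases with Ippk on the opposite strand, and the sources used here do not give the use of strand in counting. Such opposite-strand overlap also touches Cenpo (19.0%), Ska2 (10.06%), Mis12 (7.69%) and Zwilch (5.93%).

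Cenpa, the gene of the centromeric histone itself, was chosen for its values after they were seen, because 1 library shapes them. It measured 16.9, 10.8 and 12.0 FPKM with DTA-1, against 47.8, 15.1 and 21.7 FPKM with IgG2b. DTA-1 replicate 1 exceeded IgG2b replicate 2, so the groups overlapped, and the log2 fold change of -0.90 ± 0.37 (limma adjusted p = 0.329) was -0.45 without IgG2b replicate 1. Cenpi and Cenpm of the same module as Cenpk averaged 2.78 ± 0.176 and 6.89 ± 1.42 FPKM with DTA-1, against 4.82 ± 1.91 and 13.9 ± 5.1 FPKM with IgG2b. Cenpn, which reads the CENP-A nucleosome with Cenpl, averaged 4.49 ± 0.499 FPKM with DTA-1 and 6.99 ± 2.59 FPKM with IgG2b. Cenpo averaged 5.15 ± 0.108 FPKM with DTA-1 and 6.78 ± 0.96 FPKM with IgG2b, and Cenpq 11.9 ± 1.65 FPKM with DTA-1 and 18.4 ± 4.4 FPKM with IgG2b.

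Differences were small for Cenpl and Cenpt. Cenpl measured 7.46, 4.85 and 5.69 FPKM with DTA-1, against 9.5, 5.39 and 5.69 FPKM with IgG2b, with wide overlap (log2 fold change -0.15 ± 0.22, limma adjusted p = 0.831). Its direction turned to 0.080 without IgG2b replicate 1. Cenpt, whose protein bridges DNA and the Ndc80 complex, averaged 15.2 ± 1.3 FPKM with DTA-1 and 13.9 ± 3.28 FPKM with IgG2b (log2 fold change 0.14 ± 0.18, limma adjusted p = 0.80). It turned to -0.056 without IgG2b replicate 2 and to -0.051 with library quality weights, so no direction can be given for it.

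**Figure D2:**
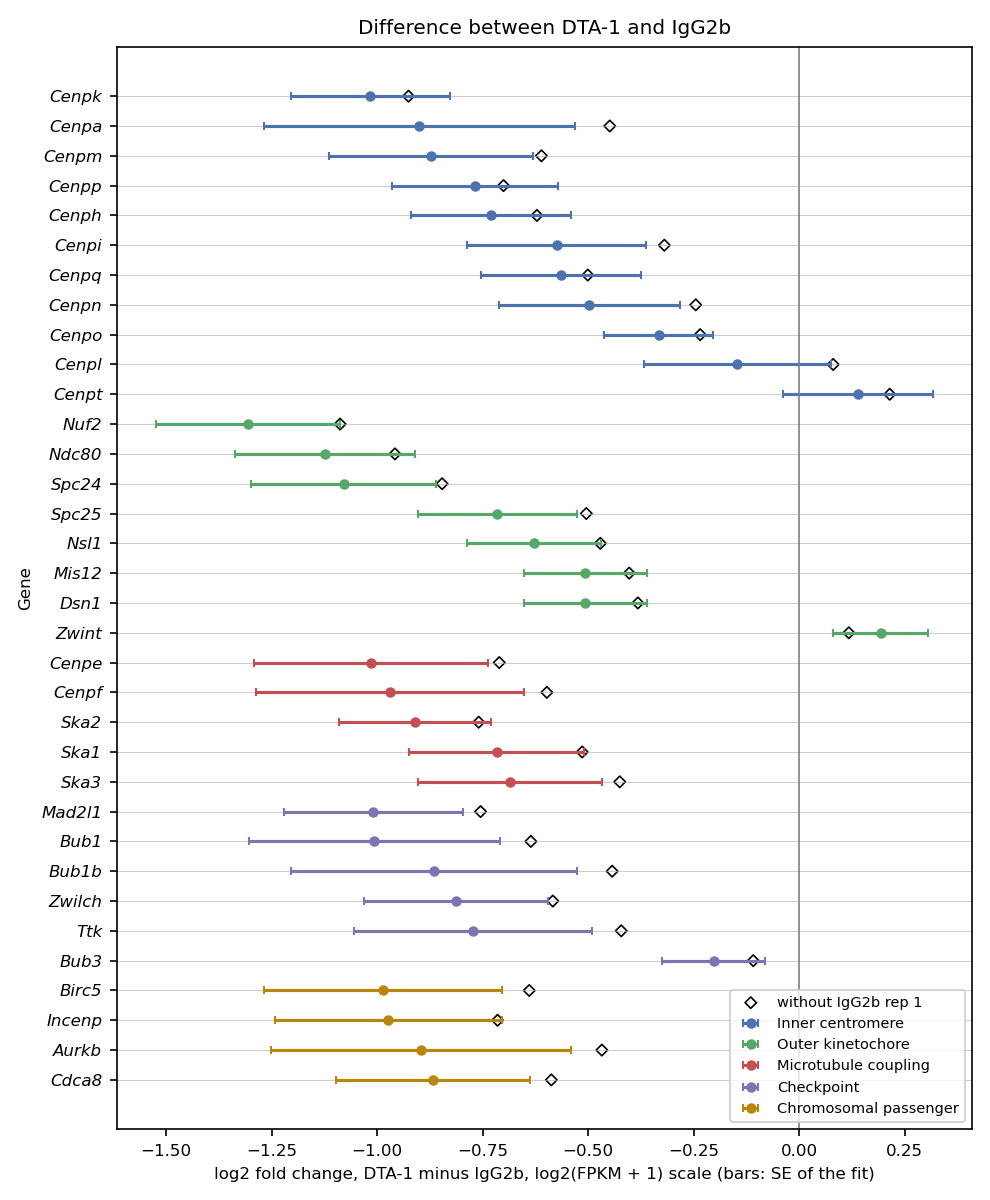
Log2 fold change of each gene, DTA-1 minus IgG2b on the log2(FPKM + 1) scale, with bars for the SE of the fit and colours for the role groups. Open diamonds give the value without IgG2b replicate 1, which lies nearer 0 for most genes, as for Cenpa at -0.45 against -0.90 with all libraries. Zwint and Cenpt lie right of 0 with all libraries, though Cenpt turns to -0.056 without IgG2b replicate 2. The points of Spc24 and Ska2 rest on values shared between both genes in DTA-1 replicates 2 and 3.

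Outer kinetochore genes held both the largest and the only non-overlapping opposite difference of the 34. Nuf2 and Ndc80 encode the paired subunits whose globular heads bind the microtubule. Nuf2, on chromosome 1 (169497934 to 169531464, minus strand, GRCm38), measured 6.51, 6.45 and 6.55 FPKM in DTA-1 replicates 1, 2 and 3, against 24.1, 18.5 and 12.0 FPKM in IgG2b replicates 1, 2 and 3. The DTA-1 libraries were nearly level while the IgG2b libraries spread widely above them, and the log2 fold change was -1.31 ± 0.22 (limma adjusted p = 0.0817, 0.0132 to 0.241 over the alternatives). With each library left out in turn it ranged between -1.56 and -1.09. Ndc80, on chromosome 17 (71496100 to 71526857, minus strand), measured 7.83, 7.0 and 8.41 FPKM with DTA-1, against 22.9, 20.4 and 12.4 FPKM with IgG2b. The groups did not overlap here either, with its log2 fold change at -1.12 ± 0.21 (limma adjusted p = 0.0947, 0.0206 to 0.294 over the alternatives).

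The other subunits of the Ndc80 complex are Spc24 and Spc25, which anchor it to the inner layer. Spc24 is listed at 10.8, 9.14 and 11.8 FPKM with DTA-1, against 32.6, 22.9 and 17.0 FPKM with IgG2b. The DTA-1 replicate 2 and 3 values are those shared with Ska2, so no fold change is given, and the DTA-1 replicate 1 value alone lies below each IgG2b value. Spc25 averaged 15.8 ± 1.78 FPKM with DTA-1 and 27.1 ± 7.56 FPKM with IgG2b, without overlap. The Mis12 complex links the Ndc80 complex to the centromere, and its genes differed less. Mis12 averaged 13.0 ± 1.4 FPKM with DTA-1 and 19.0 ± 2.98 FPKM with IgG2b, Dsn1 6.93 ± 0.248 FPKM with DTA-1 and 10.4 ± 1.93 FPKM with IgG2b, and Nsl1 3.99 ± 0.0761 FPKM with DTA-1 and 6.81 ± 1.58 FPKM with IgG2b. The log2 fold changes of Mis12, Dsn1 and Nsl1 lay between -0.63 and -0.51, and none passed. Each was lower without overlap between the groups, as were 10.5% of all tested genes.

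Zwint, whose protein binds the scaffold Knl1 and helps recruit the checkpoint complex RZZ, ran the other way. It measured 67.6, 69.3 and 69.1 FPKM with DTA-1, against 53.9, 62.1 and 64.4 FPKM with IgG2b. Every DTA-1 value lay above every IgG2b value, by a small margin (log2 fold change 0.19 ± 0.11, limma adjusted p = 0.509), and the groups overlapped when libraries were scaled to equal totals. The value was 0.12 without IgG2b replicate 1. The lowest Zwint value fell in IgG2b replicate 1, the library where 29 other members had their highest.

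Genes that couple kinetochores to microtubules were lower without overlap in 5 of 5 cases, Ska2 included, against 10.5% of all tested genes. Their median log2 fold change was -0.91, and -0.60 without IgG2b replicate 1. The median of -0.91 falls on Ska2, whose values in DTA-1 replicates 2 and 3 are doubtful. The other coupling genes lay between -1.02 and -0.69. Cenpe encodes a kinesin motor that carries chromosomes to the spindle equator. It measured 7.54, 5.87 and 6.31 FPKM with DTA-1, against 22.3, 14.4 and 8.9 FPKM with IgG2b, with its log2 fold change at -1.02 ± 0.28 (limma adjusted p = 0.166). Cenpf, a large microtubule-binding protein gene of the outer layer, measured 4.48, 2.76 and 3.15 FPKM with DTA-1, against 13.4, 6.83 and 4.67 FPKM with IgG2b. The gap between the nearest Cenpf libraries, DTA-1 replicate 1 and IgG2b replicate 3, was narrow. Its log2 fold change was -0.97 ± 0.32 (limma adjusted p = 0.225), and -0.60 without IgG2b replicate 1.

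The Ska complex keeps kinetochores on shrinking microtubules. Ska1 was the lowest of the 34 genes in level, at 1.52, 1.86 and 2.39 FPKM with DTA-1, against 5.32, 3.49 and 2.83 FPKM with IgG2b. Its log2 fold change of -0.72 ± 0.21 (limma adjusted p = 0.179) understates the ratio of means of 0.496, because the added 1 FPKM weighs on low genes. Ska3 averaged 4.22 ± 0.402 FPKM with DTA-1 and 7.68 ± 2.92 FPKM with IgG2b. Ska2 is listed at 10.9, 9.14 and 11.8 FPKM with DTA-1, against 25.8, 21.5 and 16.0 FPKM with IgG2b. As for Spc24, the later pair of DTA-1 values is shared between both genes, and the DTA-1 replicate 1 value alone lies below each IgG2b value.

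Among checkpoint genes, 5 of 6 were lower at an unadjusted p under 0.05, with a median log2 fold change of -0.84 over the 6, against 7.73% of all tested genes. The count was 3 of 6 without DTA-1 replicate 3 (6.21% of all genes there), and the median was -0.51 without IgG2b replicate 1. Mad2l1 encodes MAD2, the protein that captures the anaphase activator CDC20. It measured 15.9, 13.7 and 13.3 FPKM with DTA-1, against 42.7, 25.9 and 23.6 FPKM with IgG2b, clear of overlap, with its log2 fold change at -1.01 ± 0.21 (limma adjusted p = 0.108). Bub1, a kinase gene that places checkpoint proteins and shugoshin at centromeres, measured 5.04, 4.16 and 4.98 FPKM with DTA-1, against 18.2, 9.24 and 6.69 FPKM with IgG2b. Zwilch, a subunit gene of the RZZ complex, measured 8.49, 9.16 and 9.62 FPKM with DTA-1, against 23.3, 16.9 and 11.7 FPKM with IgG2b. In both genes IgG2b replicate 1 was highest and the groups did not overlap, with log2 fold changes of -1.01 ± 0.30 and -0.81 ± 0.22 (limma adjusted p = 0.188 and 0.161). Bub1 stood at -0.64 without IgG2b replicate 1.

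Bub1b, which encodes the checkpoint protein BUBR1, averaged 12.2 ± 3.03 FPKM with DTA-1 and 24.9 ± 14.3 FPKM with IgG2b, and DTA-1 replicate 1 at 15.7 FPKM slightly exceeded IgG2b replicate 3 at 15.5 FPKM. Ttk, the gene of the MPS1 kinase that starts checkpoint signalling, averaged 3.03 ± 0.562 FPKM with DTA-1 and 6.28 ± 3.32 FPKM with IgG2b. Bub3, the most abundant of the 34 genes, encodes a partner of both BUB1 and BUBR1. It measured 64.8, 59.6 and 63.5 FPKM with DTA-1, against 82.4, 69.6 and 65.7 FPKM with IgG2b, a small gap without overlap (log2 fold change -0.20 ± 0.12, limma adjusted p = 0.521). It was -0.11 without IgG2b replicate 1.

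The chromosomal passenger genes were lower by similar amounts, with log2 fold changes between -0.99 and -0.87. Birc5 encodes survivin, which brings the complex to the centromere, and was the most abundant of these at 37.4, 27.9 and 33.7 FPKM with DTA-1, against 107, 46.1 and 57.8 FPKM with IgG2b. Incenp, the scaffold gene, measured 24.7, 15.2 and 17.7 FPKM with DTA-1, against 54.7, 37.9 and 26.2 FPKM with IgG2b. Cdca8, the gene of borealin, measured 21.0, 17.9 and 19.8 FPKM with DTA-1, against 54.3, 32.6 and 27.4 FPKM with IgG2b. None of these overlapped between the groups, and none passed (limma adjusted p = 0.178 for Birc5, 0.168 for Incenp and 0.157 for Cdca8). Birc5 stood at -0.64 without IgG2b replicate 1. Aurkb, the kinase gene of the complex, measured 17.5, 11.9 and 10.4 FPKM with DTA-1, against 46.2, 16.1 and 20.9 FPKM with IgG2b. Its groups overlapped, and its log2 fold change of -0.90 ± 0.36 (limma adjusted p = 0.313) was -0.47 without IgG2b replicate 1.

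Levels of partners in a complex could be compared within each library. The Ndc80 to Nuf2 ratio was near 1 in both groups, at 1.19 ± 0.099 with DTA-1 and 1.03 ± 0.076 with IgG2b, with overlap. The Birc5 to Aurkb ratio was 2.57 ± 0.582 with DTA-1 and 2.65 ± 0.292 with IgG2b, and the Mis12 to Dsn1 ratio 1.88 ± 0.235 with DTA-1 and 1.84 ± 0.058 with IgG2b. Within the Ndc80 complex, Spc25 exceeded Ndc80 by 1.91, 2.09 and 2.13 times with DTA-1, against 1.56, 1.13 and 1.81 times with IgG2b, without overlap. Ratios of Bub3 and Zwint to a partner lay further apart. Bub3 exceeded Bub1 by 12.9, 14.3 and 12.8 times with DTA-1, against 4.53, 7.54 and 9.81 times with IgG2b, without overlap. For its other partner Bub1b the ratios were 4.14, 5.96 and 5.82 with DTA-1, against 1.99, 3.91 and 4.22 with IgG2b, with overlap. Zwint exceeded Knl1, listed as Casc5, by 15.2, 21.2 and 19.8 times with DTA-1, against 4.08, 8.40 and 13.7 times with IgG2b. It exceeded Ndc80 by 8.64, 9.90 and 8.22 times with DTA-1, against 2.35, 3.04 and 5.19 times with IgG2b. Across all 34 genes, Bub3, Zwint and Birc5 averaged above 30 FPKM over the 6 libraries, and Ttk, Cenpi and Ska1 below 5 FPKM.

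The libraries of a group were not alike in these genes. Of the 34 genes, 19 had their lowest value in DTA-1 replicate 2, and 29 had their highest in IgG2b replicate 1. Median deviations from the mean of all 6 libraries were -0.28, -0.47 and -0.37 in DTA-1 replicates 1, 2 and 3, against 0.83, 0.26 and 0.036 in IgG2b replicates 1, 2 and 3, on the log2(FPKM + 1) scale. With IgG2b replicate 1 set aside, the DTA-1 values lay below both remaining IgG2b libraries for 27 of the 34 genes, against 14.7% of all genes tested there. Setting a library aside cannot lower this count for the same genes, so the count does not test the part of that library. Proliferation genes outside the list stood the same way in these libraries. Mki67, the common marker of cycling cells, measured 39.6, 27.3 and 30.3 FPKM with DTA-1, against 115, 54.8 and 43.3 FPKM with IgG2b, and Top2a, which untangles sister chromatids, averaged 65.1 ± 10.4 FPKM with DTA-1 and 135 ± 59.0 FPKM with IgG2b. Pcna, of the replication fork, averaged 180 ± 6.07 FPKM with DTA-1 and 301 ± 36.5 FPKM with IgG2b. All 11 genes of a proliferation list were lower without overlap, against 10.5% of all tested genes, and the part of proliferation in the 34 genes' values was not tested.

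**Figure D3:**
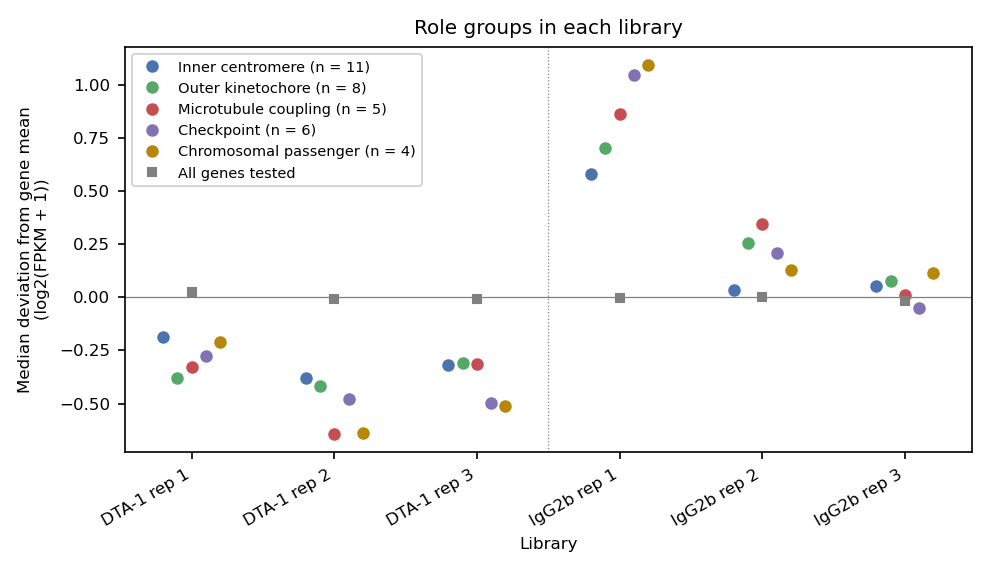
Median deviation of each role group from its genes' mean over the 6 libraries, in log2(FPKM + 1), with DTA-1 libraries left and IgG2b libraries right of the dotted line. All 5 groups lie below 0 in each DTA-1 library and highest in IgG2b replicate 1, where passenger genes reach 1.09 and inner genes 0.58, while the median of all genes stays near 0.

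The way members spread between the IgG2b libraries differed from gene to gene, a pattern noticed in the data and described without a test. In Cenpa, Aurkb and Birc5, IgG2b replicate 1 exceeded replicate 2 by 3.17, 2.87 and 2.32 times, and replicate 2 lay below replicate 3. In Cenpk, Cenpp and Cenpq, IgG2b replicate 2 was instead the highest library, and exceeded replicate 3 by 1.67, 1.65 and 1.63 times. Ndc80 and Nuf2 stood closer to the second pattern, with replicate 2 at 1.65 and 1.54 times replicate 3.

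**Figure D4:**
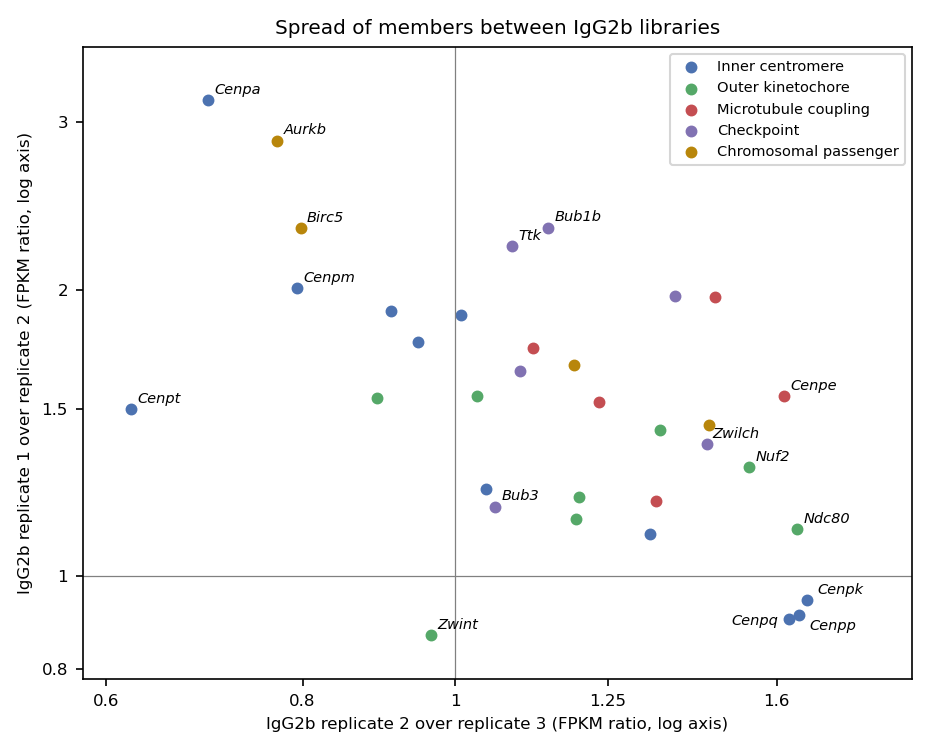
Ratio of IgG2b replicate 1 over replicate 2 against the ratio of replicate 2 over replicate 3, in FPKM with log axes, 1 point per gene. Cenpa, Aurkb and Birc5 lie at the upper left and Cenpk, Cenpp and Cenpq at the lower right, so no single order of the libraries holds for all 34 genes.

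Further genes of the same machinery were read from 3 lists chosen by function. Of 30 other centromere and kinetochore genes, 16 were lower at an unadjusted p under 0.05 (7.73% of all tested genes), 15 were lower without overlap (10.5%), and the median log2 fold change was -0.50, or -0.325 without IgG2b replicate 1. Oip5, which loads CENP-A with the chaperone HJURP, averaged 5.49 ± 0.189 FPKM with DTA-1 and 9.98 ± 2.27 FPKM with IgG2b. Cenps, listed as Apitd1, averaged 9.3 ± 1.1 FPKM with DTA-1 and 13.9 ± 0.614 FPKM with IgG2b. Trip13, an ATPase gene that remodels MAD2, averaged 9.76 ± 1.12 FPKM with DTA-1 and 18.8 ± 6.12 FPKM with IgG2b, and the microtubule depolymerase gene Kif2c 4.7 ± 0.886 FPKM with DTA-1 and 10.8 ± 4.46 FPKM with IgG2b. Nde1, which works with dynein in many cell types, was level at 54.2 ± 8.51 FPKM with DTA-1 and 54.3 ± 6.91 FPKM with IgG2b.

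The checkpoint acts on the anaphase-promoting complex (APC/C), the ubiquitin ligase that ends mitosis. Of 21 genes of the APC/C, its activators and its targets, 5 were lower at an unadjusted p under 0.05 (7.73% of all tested genes), 7 were lower without overlap (10.5%), and the median log2 fold change was -0.14. Without IgG2b replicate 2 these counts were 9 (8.75% of all genes there) and 11 (15.9%), and the first was 3 without DTA-1 replicate 2 or without DTA-1 replicate 3. The 5 included Fbxo5, the gene of the APC/C inhibitor EMI1, at 11.5 ± 0.64 FPKM with DTA-1 and 21.9 ± 5.05 FPKM with IgG2b, and the activator gene Cdc20, at 26.3 ± 5.67 FPKM with DTA-1 and 52.0 ± 24.9 FPKM with IgG2b. The mitotic cyclin genes Ccnb1 and Ccnb2 averaged 20.6 ± 1.87 and 12.8 ± 2.89 FPKM with DTA-1, against 43.5 ± 18.9 and 28.3 ± 16.5 FPKM with IgG2b. Ube2s, the chain-elongating enzyme of the APC/C, averaged 186 ± 5.78 FPKM with DTA-1 and 195 ± 73.7 FPKM with IgG2b. Its IgG2b replicates 1, 2 and 3 lay apart, at 264, 117 and 202 FPKM. The log2 fold change was 0.27 without IgG2b replicate 1 and -0.31 without IgG2b replicate 2, so no direction can be given for Ube2s. Of 13 cohesin genes, whose ring holds sister chromatids together, 4 were lower at an unadjusted p under 0.05 (7.73% of all tested genes) and 3 were lower without overlap (10.5%), with a median of -0.13. The median was -0.022 without IgG2b replicate 2 and -0.22 without IgG2b replicate 3, where 6 were lower without overlap (16.9% of all genes there). The 4 were the acetyltransferase gene Esco2, at 4.59 ± 0.334 FPKM with DTA-1 and 10.9 ± 3.52 FPKM with IgG2b, Cdca5, the gene of sororin, at 8.32 ± 0.348 FPKM with DTA-1 and 17.1 ± 5.38 FPKM with IgG2b, and the ring genes Smc1a and Rad21. Pds5a, at 41.1 ± 3.48 FPKM with DTA-1 and 41.8 ± 7.7 FPKM with IgG2b, was level. No gene of the 3 lists passed an adjusted p of 0.05 in limma.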

How the data were processed

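RNA-seq was done on 3 DTA-1 and 3 IgG2b libraries, grouped and numbered from the sample titles. Per the labels' protocols the library kit was directional. The submitters' processing notes name TopHat and mm10, with no quantifier, annotation or use of strand given in the sources used here. The authors deposited 1 value per gene and library without a unit, taken here as FPKM because the values are not whole, sum to between 574195 and 606724 per library and step with inverse transcript length. A gene entered the test if 3 or more libraries reached 1 FPKM. Values were moved to log2(FPKM + 1) and fitted by group in limma 3.58.1 (R 4.3.3; trend and robust empirical Bayes, 2-sided, Benjamini-Hochberg over all 10501 genes). In an exact permutation test 3 against 3 cannot go below 0.1, so none is given. The procedure was tested on simulated data. The members and lists were chosen with earlier results of these data known. Within each role group, the 3 genes with the smallest p and the 1 with the largest are given by library; from each further list, the 4 smallest and 1 largest. Coordinates, lengths and overlaps come from GENCODE M21 (GRCm38), and promoters from RefSeq. Alternatives covered pseudocount, filter, scaling, moderation, weights, block, trends with GC and length (mgcv 1.9.3) and each library left out. Figures used matplotlib 3.10.9.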

Additional observations from a re-analysis of the deposited data

How the results depend on the processing

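Of 609 values of single members under 18 alternatives, 576 kept their direction and their side of the adjusted p of 0.05, 30 passed it, and 3 turned direction: Cenpl to 0.080 without IgG2b replicate 1, and Cenpt to -0.051 with library quality weights and -0.056 without IgG2b replicate 2. With each library left out Cenpl ranged between -0.29 and 0.080 and Cenpt between -0.056 and 0.26. The cause was not tested. Leaving out each library in turn gave a member median between -0.97 and -0.51 (-0.51 without IgG2b replicate 1) and 23 to 29 members lower at an unadjusted p under 0.05, against 5.39% to 8.75% of all genes. It gave 0 to 3 genes higher and 0 to 1 lower over the whole table at the adjusted threshold, 3 (leaving out DTA-1 replicate 2 or 3) to 9 (without IgG2b replicate 2) APC/C genes lower at an unadjusted p under 0.05 and 7 to 11 (without IgG2b replicate 2) without overlap, and 3 to 6 (without IgG2b replicate 3) cohesin genes lower without overlap. With library quality weights 15 members were called lower at an adjusted p of 0.05, with 11 other kinetochore, 5 APC/C and 2 cohesin genes, and 161 higher and 314 lower over the whole table. The replicate block gave 15 members, 3 other kinetochore, 4 APC/C and 2 cohesin genes, and 59 higher and 126 lower (1.2%) over the whole table. Deviations from the group means of same-numbered libraries correlated at 0.393, -0.101 and -0.129, so the numbers are not taken as pairs and the block does not replace the unblocked fit. Of the 15 members, 11 were called in both. The adjusted threshold of 0.1 gave 3 members. Without a filter 1 gene was higher over the whole table; scaling to equal totals gave 2 lower and 0 members higher without overlap. With a mean of at least 5 FPKM, fewer genes were tested, 23 of the 30 other kinetochore genes and 8156 of all genes. Of the 23, 9 were lower at an unadjusted p under 0.05 (567 of the 8156) and 9 without overlap (789 of the 8156). Removing the GC and length trend gave 1 gene higher over the whole table at the adjusted threshold. At an unadjusted p under 0.05 it gave 1 member higher (8.52% of all genes there) and 10 other kinetochore genes lower (8.84%). Here 24 of the 30 other kinetochore genes and 10112 of all genes were tested, because the rest had no length. Adding the replicate block to the trend removal gave 0 higher and 0 lower over the whole table at the adjusted threshold. Leaving out the 5 members whose exons overlap another gene by at least 5%, chosen after seeing the data, gave a median of -0.87. Of the 29 left, 25 were lower at an unadjusted p under 0.05, against 7.73% of all tested genes.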

Other observations

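Among genes with at least 5 FPKM, 238 pairs shared a deposited value in 1 library, and 1 pair, Spc24 with Ska2, shared values in 2 libraries. No pair did so in 3 or more. Whether the shared values of DTA-1 replicates 2 and 3 belong to one gene, or match by coincidence, could not be settled from the files.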
